A study of Mus musculus with 4 samples.

Results

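HA-hWDR5 peaks were examined at 6 neural progenitor genes of the mouse, Pou3f2, Pou3f1, Pou3f3, Nes, Sox1 and Sox2, out of 21887 protein-coding genes in the RefSeq annotation of GRCm38.p6 (the build mm10). The genes were chosen by name from earlier results on these same libraries, in which the fold of the Pou3f2 peak at each rescue time and the Nes peak had been seen. A peak was counted for a gene when its summit lay inside the gene or within 20 kb of either end. By that rule the members held 3 of the 1197 peaks found at T12h and 1 of the 660 found at T48h.

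Each rescue time had 1 anti-HA ChIP-seq library and 1 input library from day 6 embryoid bodies, per the labels. All cells were Rx:GFP knock-in embryonic stem cells with Wdr5 KO and a doxycycline-inducible, HA-tagged human WDR5. They were aggregated by SFEBq, a floating culture that leads stem cells towards forebrain and retina, with Matrigel added at day 1. The 2 groups differed in when doxycycline was added, T12h or T48h, and the labels do not give the event from which these hours run or whether the line is a single clone. Depth after duplicate removal was 55539917 ChIP tags at T12h and 67116740 at T48h, with 54011542 and 61209779 tags in the controls. With 1 library per time there was no replicate error, so no difference between times could be tested.

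WDR5 is a WD40-repeat scaffold of the MLL and SET1 complexes, which methylate lysine 4 of histone H3 at gene starts, and it also contacts MYC. Pou3f1, Pou3f2 (also called Brn2) and Pou3f3 (Brn1) encode class III POU transcription factors, which bind octamer-like DNA through a POU-specific domain and a homeodomain and act in neural commitment, neurogenesis and glial development. Sox1 and Sox2 encode SOXB1 factors that keep neural progenitors undifferentiated, and Sox2 is also a core pluripotency factor. Nes encodes nestin, an intermediate filament protein used as a marker of neural stem cells. SOX2 and POU3F2 are known to bind together at enhancers in neural progenitor cells.

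Pou3f2 and Nes held a T12h peak inside the gene, with summits 1202 and 332 bp after the start. The DNA just before their starts is shown, and that before the start of Pou3f3, a close relative of Pou3f2 without a peak. Each is the 250 bases before the RefSeq start, from 5′ to 3′ on the strand of the gene, in build GRCm38.p6. They lie at chr4:22488367-22488616 (minus strand), chr3:87970843-87971092 (plus strand) and chr1:42695518-42695767 (plus strand). Capitals mark CCAAT boxes (CCAAT) and GC boxes (GGGCGG) on either strand.
Pou3f2: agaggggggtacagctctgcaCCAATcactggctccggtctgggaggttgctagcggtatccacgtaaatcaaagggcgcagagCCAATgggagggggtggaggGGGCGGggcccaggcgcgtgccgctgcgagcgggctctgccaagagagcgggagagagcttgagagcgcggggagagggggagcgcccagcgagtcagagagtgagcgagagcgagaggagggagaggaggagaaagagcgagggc
Nes: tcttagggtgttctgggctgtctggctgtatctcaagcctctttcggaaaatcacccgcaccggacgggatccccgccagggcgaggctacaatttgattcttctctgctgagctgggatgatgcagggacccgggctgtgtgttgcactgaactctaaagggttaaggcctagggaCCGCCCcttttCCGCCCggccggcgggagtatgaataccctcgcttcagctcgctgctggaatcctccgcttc
Pou3f3: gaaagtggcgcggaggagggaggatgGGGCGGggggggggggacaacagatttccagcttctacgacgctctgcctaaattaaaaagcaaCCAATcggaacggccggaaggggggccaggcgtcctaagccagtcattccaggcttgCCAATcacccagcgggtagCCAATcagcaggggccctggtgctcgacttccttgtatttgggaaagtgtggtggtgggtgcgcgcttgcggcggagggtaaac

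Of the 6 members, 5 had a RefSeq window of this kind. None of the 5 windows overlapped a peak. The CCAAT box occurred at 229 and 166 bases before the start of Pou3f2 and at 160, 103 and 84 bases before that of Pou3f3, at 237 bases before that of Sox1 and, on the opposite strand, at 46 bases before that of Sox2. It was thus found in 4 of the 5 windows, and not in that of Nes. At least 1 CCAAT box was present in 35.4% of 21263 windows of protein-coding genes of the same length. The GC box was found in all 5 windows and in 42.6% of the 21263. TATAAA (11.6% of all windows), the E-box CACGTG (6.63%) and the octamer ATGCAAAT (1.58%) were found in none of the 5. The 5 windows held between 58.8% (Nes) and 72.0% (Sox2) G and C, against a median of 55.6% over all windows. The search describes these letters alone and shows no binding.

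Pou3f2 held the strongest peak of the members at T12h and the only one at T48h. At T12h the peak (chromosome 4, 22486714 to 22488214) was 1501 bp wide and held 451 tags (exact Poisson 95% interval 410 to 495, counting error only). Its fold over the local background, as MACS gave it, was 21.05, and its MACS score, which is minus 10 times the log10 of the peak's p-value, was 2765.82. At T48h the peak (22487053 to 22487248) was 196 bp wide and held 20 tags (12.2 to 30.9), with a fold of 7.66 and a score of 65.36. Fold, score, tags and width were thus all lower at T48h. The rule for the gene list used these values, so they are a description and carry no test.

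Both Pou3f2 peaks marked the same place. The T48h peak lay wholly inside the T12h peak and covered 13.1% of it, and the summits were 8 bp apart. The T12h summit lay 1202 bp after the start of the gene and the T48h summit 1194 bp after it. The T12h peak ran from 152 to 1652 bp after the start and covered 23.9% of the 6272 bp span of the gene. The T48h peak ran from 1118 to 1313 bp. Tags in the rest of the T12h region at T48h are not given by the peak list, so the 451 and 20 tags do not cover the same DNA. The reads behind these calls were not analysed here, and the source of the tags in the wide T12h peak was not tested.

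**Figure D1:**
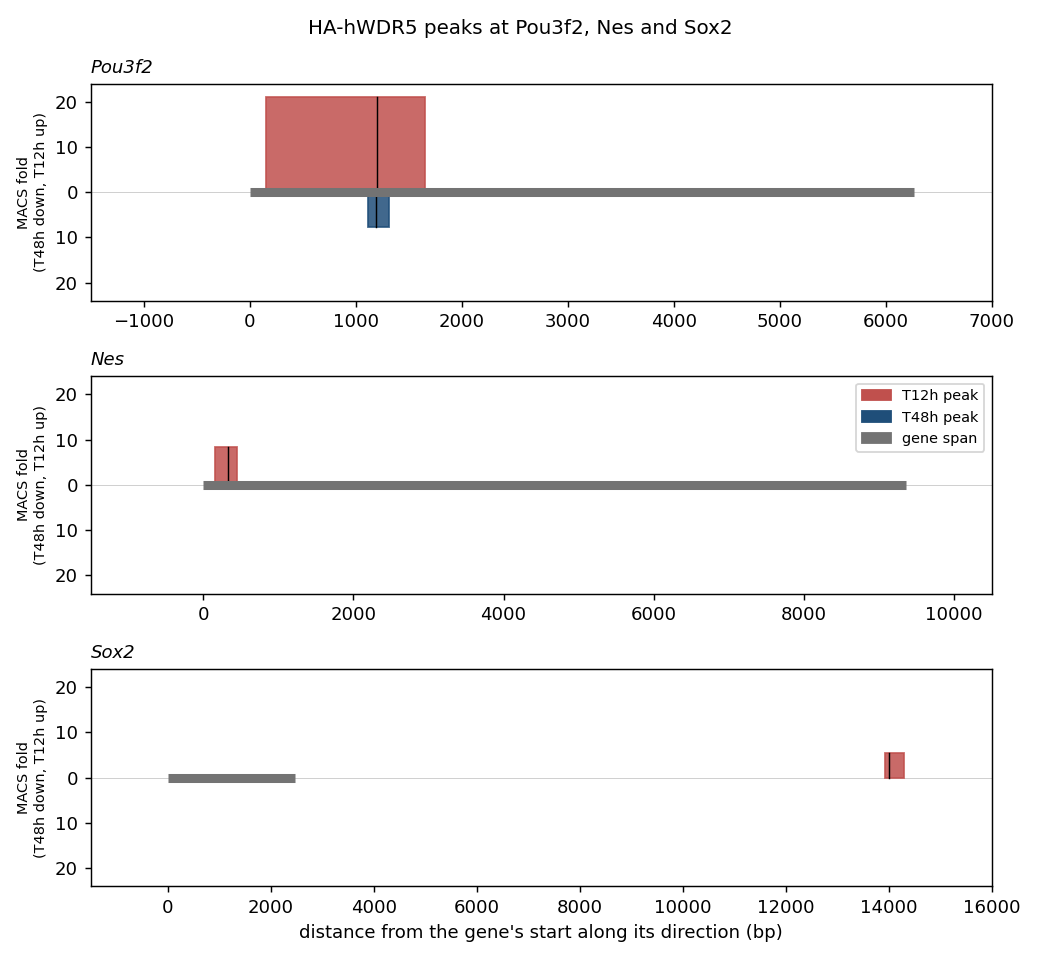
Peaks drawn along Pou3f2, Nes and Sox2, with distance from the gene's start in bp on the x axis and the MACS fold as box height (T12h upwards in red, T48h downwards in blue); grey bars are gene spans and black lines summits. The T12h box at Pou3f2 is 1501 bp wide and reaches a fold of 21.05, the T48h box is 196 bp wide and reaches 7.66, and Nes and Sox2 have a T12h box alone.

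Per unit of width the change was smaller than in the raw tags. The T12h peak held 300.5 tags per kb of called width and the T48h peak 102, against list medians of 100.6 and 111.1. After scaling to the filtered tags of each library, the T48h to T12h ratio of tags per kb was 0.281. The ratio of the folds was 0.364. The ratio of tags scaled to filtered tags, without regard to width, was 0.0367. Raw tags grow with the called width, and tags per kb also shift with where the edges were set.

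Within its own list the Pou3f2 peak moved from near the top to the middle by score and fold, and to the lower part by tags and width. At T12h it ranked 11 of 1197 by score, 27 by tags, 39 by width and 83 by fold. At T48h it ranked 315 of 660 by score, 330 by fold, 547 by tags and 551 by width, and its fold equalled the list median of 7.66. On chromosome 4, which held 68 T12h peaks, 1 other peak had a higher T12h score.

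The T12h Pou3f2 peak was wider than the peaks nearest to it in fold. It was the widest of the 85 T12h peaks with a fold of at least 20, a limit set after the values were seen, but the next widest of these came close, with widths of 1458, 1376 and 1353 bp, and the median width of the 85 was 942 bp. The peaks nearest to it in fold at T12h lay at Eif4g1 (21.05), a translation initiation factor gene, Gm39662 (21.43), Emc4 (21.55), Txn1 (20.41), which encodes thioredoxin, Efcab12 (19.92) and Dipk1a (19.84). These 6 peaks were 569 to 1054 bp wide and held 116 to 301 tags. Each of the 6 had a T48h counterpart, with T48h folds of 11.7, 15.02, 13.42, 11.08, 6.68 and 9.51 in the same order. At T48h the 6 peaks nearest in fold to that of Pou3f2 were 151 to 335 bp wide with 16 to 43 tags, and 1 of them, near Rfxap, had a T12h counterpart (fold 11.7).

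**Figure D2:**
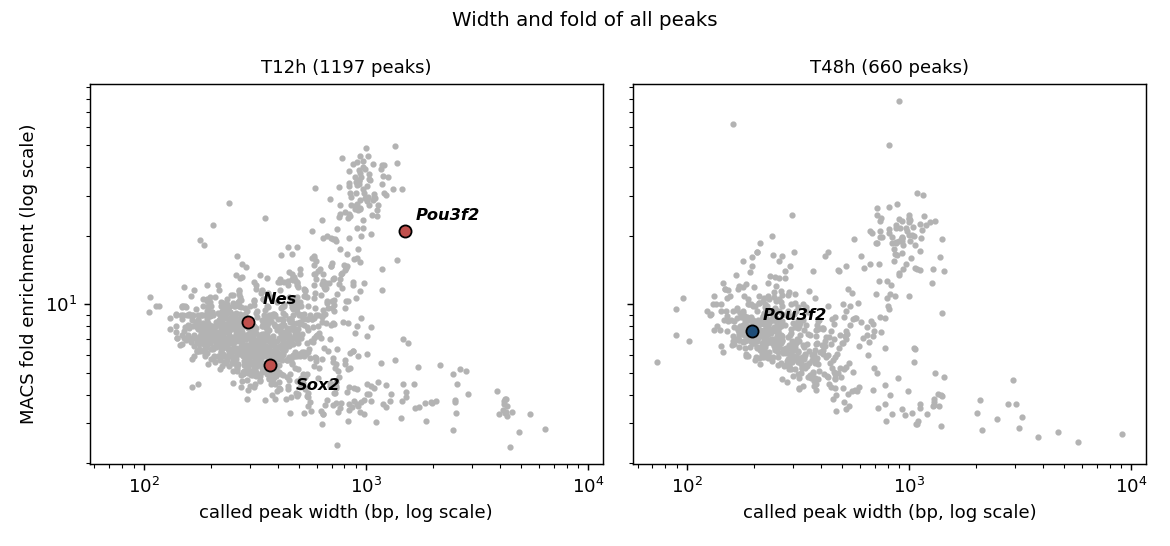
Called width in bp (x axis, log scale) against MACS fold (y axis, log scale) for every peak of T12h (left) and T48h (right), with the peaks of the members coloured and named. At T12h Pou3f2 (1501 bp) is the widest peak with a fold above 20, by a small margin over the next (1458 bp), while Nes, Sox2 and the T48h Pou3f2 peak lie inside the main cloud.

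Among all sites found at both times, Pou3f2 had the lowest ratio of T48h to T12h in 4 of 5 measures. The lists had 228 overlapping pairs of peaks, and most pairs had a lower fold at T48h, with a median ratio of 0.679. The Pou3f2 fold ratio of 0.364 was 0.536 times that median and ranked 9 of 228 from the lowest. The lower quartile of the pairs was 0.54. Scaling the Pou3f2 fold ratio by the Poisson limits of its 20 T48h tags gave 0.222 to 0.562. The fold did not follow the tags of the called region, so this range is not the error of the fold ratio. The Pou3f2 width ratio was 0.131, against a median of 0.899. Its tag ratio was 0.0367 against 0.619, its density ratio 0.281 against 0.673 and its score ratio 0.0236 against 0.504. In the last 4 measures no other pair was lower. The pair was chosen for this difference, so its place is a description.

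Strong T12h peaks were otherwise strong at T48h. All 82 T12h peaks with a score of at least 1000, a limit set after the values were seen, overlapped a T48h peak. The median T48h score of their best partners was 1148 and the median T48h fold 19.5. Pou3f2 had the lowest T48h score of the 82 at 65.36, and the next lowest was 216.78, at a peak nearest to Iqch. It also had the lowest T48h fold and the narrowest T48h width, where the median was 928 bp. For this width, all T48h partners of a T12h peak were added together.

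**Figure D3:**
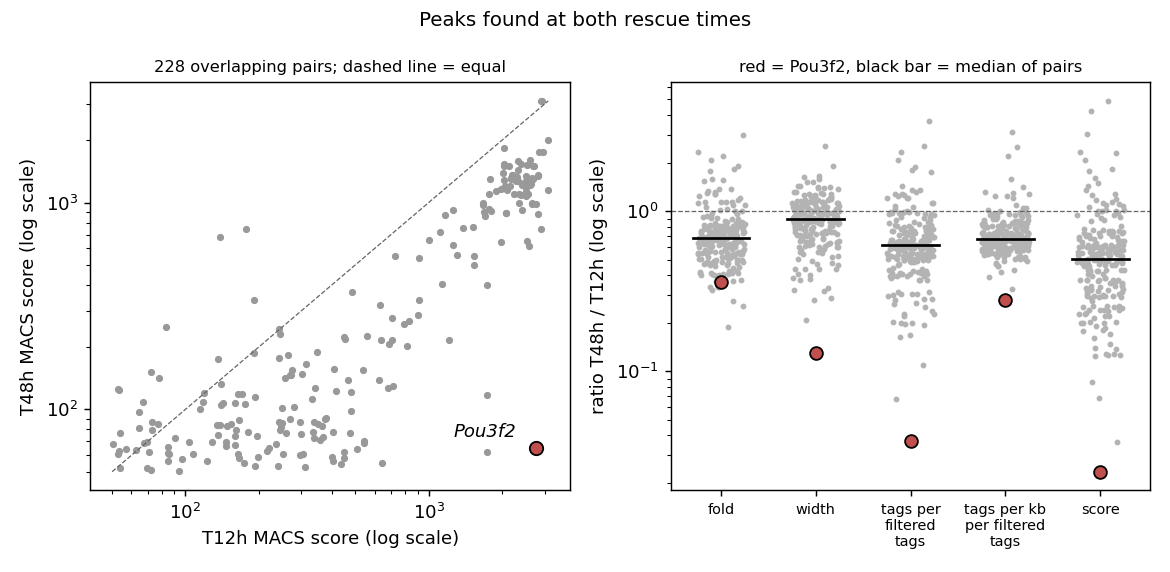
Left, MACS scores of the 228 overlapping pairs at T12h (x axis) and T48h (y axis), both on log scales with a dashed line of equality; right, T48h to T12h ratios of 5 measures on a log scale, with each grey point a pair, the bar the median of pairs and the red point Pou3f2. Pou3f2 lies at the lower right of the left panel, at 2765.82 and 65.36, with a pair at Rnf220 (1734.07 and 62.48) close to it, and is the lowest point for width (0.131), tags (0.0367), tags per kb (0.281) and score (0.0236).

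The deposited false discovery rate, which MACS takes from calls with ChIP and control exchanged, was 9.09% for the T12h Pou3f2 peak and 8.25% for the T48h peak. The list medians were 3.0% and 9.62%. At T12h a high rate was common among the strongest peaks, since the 20 peaks of highest score had rates from 5.0% to 50%, and 19 of them were above 5%. A limit of 5% would remove Pou3f2 at both times and keep the weaker T12h peaks of Nes and Sox2.

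Nes had a T12h peak just after its start and no T48h peak. The peak (chromosome 3, 87971247 to 87971542) was 296 bp wide, with 28 tags (18.6 to 40.5), a fold of 8.37, a score of 80.18 and a false discovery rate of 2.67%. Its summit lay 332 bp after the start, and the called region ran from 154 to 449 bp after it. The peak ranked 561 of 1197 by score and 406 by fold, near the middle of the list. Of the 1167 T12h summits that could be placed against a RefSeq start, 307 (26.3%) also lay 0 to 500 bp after the nearest start, and 464 (39.8%) lay over 10 kb from one. The Pou3f2 summit was farther in, and 11 summits (0.943%) lay 1000 to 1500 bp after the nearest start. At T48h 113 of 641 summits (17.6%) lay 0 to 500 bp after a start, 3 (0.468%) lay 1000 to 1500 bp after one and 364 (56.8%) lay over 10 kb away. Starts outside the table used would move these shares.

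The T48h peak closest to Nes was 197 kb away, near the lncRNA gene 1700113A16Rik, and it was also present at T12h, with a fold of 6.52 at T48h and 13.61 at T12h. Lack of a T48h counterpart was the usual state of T12h peaks as weak as that of Nes. Of 310 T12h peaks with a score from 0.8 to 1.2 times that of the Nes peak, 20 (6.45%) overlapped a T48h peak. Over all 1197 T12h peaks, strong ones included, 225 (18.8%) did. The missing T48h call at Nes was thus shared with nearly all T12h peaks of like score, and a difference between times was not detectable there.

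Sox2 had no peak in the gene, and its T12h peak lay 11545 bp beyond the end of the gene, inside the span of the lncRNA gene Sox2ot, which surrounds Sox2. The peak (chromosome 3, 34663921 to 34664291) was 371 bp wide, with 37 tags (26.1 to 51.0), a fold of 5.41, a score of 75.52 and a false discovery rate of 2.42%. It ranked 620 of 1197 by score and 988 by fold, and its summit was 14011 bp after the Sox2 start. Of 343 T12h peaks with a score from 0.8 to 1.2 times this one, 20 (5.83%) overlapped a T48h peak, against 18.8% of all T12h peaks. The closest T48h summit to Sox2 was 5521 kb away, beyond the upper quartile of 2651 kb over protein-coding genes. The fold of this peak was 0.740 times the list median, and it was the weakest of the members' peaks by fold.

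Pou3f1, Pou3f3 and Sox1 had no peak within 20 kb at either time. For Pou3f1 the nearest summit was 1386 kb away at T12h, at the mitochondrial ribosomal protein gene Mrps15 (fold 7.11), and 502 kb away at T48h. For Pou3f3 it was 204 kb away at T12h (fold 4.48) and 489 kb away at T48h, at the pseudogene Gm8210 (fold 8.89). For Sox1 it was 513 kb away at T12h, inside Mcf2l (fold 3.93), and 1472 kb away at T48h (fold 5.9). The median distance from a protein-coding gene to the nearest summit was 561 kb at T12h and 1115 kb at T48h, and all 6 of these distances lay under the upper quartiles of 1562 kb and 2651 kb. The highest distance counted by the window was that of Sox2 at T12h, 11.5 kb, and the lowest left out was that of Nes at T48h, 197 kb.

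**Figure D4:**
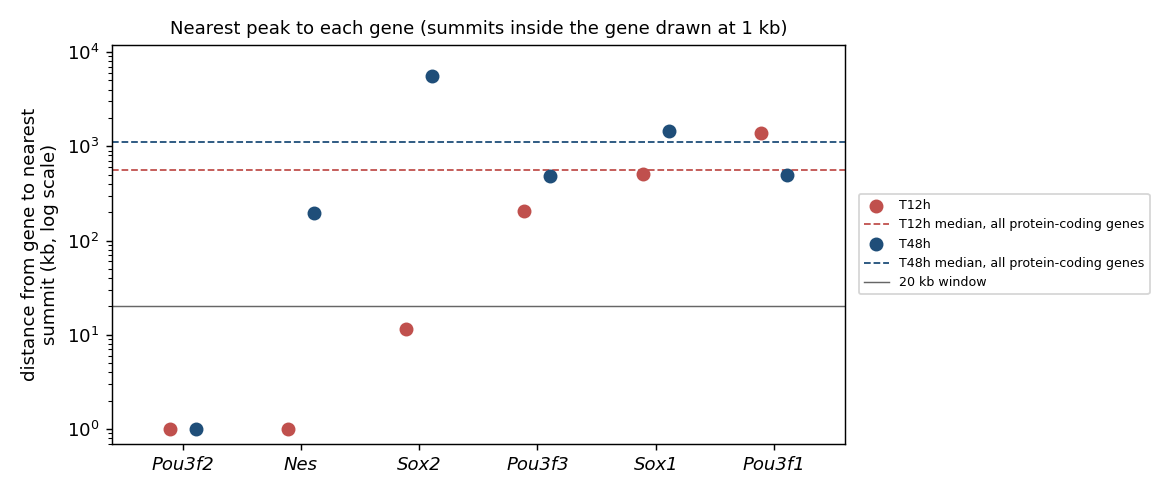
Distance from each gene to the nearest summit in kb (log scale) at T12h (red) and T48h (blue), with summits inside a gene drawn at 1 kb, the 20 kb window as a grey line and the medians over all protein-coding genes as dashed lines. Pou3f2 at both times, Nes at T12h and Sox2 at T12h lie below the window, and all other points are at 197 kb or more.

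In all, 3 of 6 members had a peak within 20 kb at T12h and 1 of 6 at T48h, and 1 of 6 had it at both. Over all 21887 protein-coding genes the shares were 7.69% at T12h, 3.49% at T48h and 2.26% at both. Summits inside the gene were found in 2 members at T12h and 1 at T48h, against 3.22% and 1.3% of protein-coding genes. Since the genes were picked with peaks at Pou3f2 and Nes known, nothing is read from the higher share of members.

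Wider lists of the same families, also chosen with earlier results known, added few genes. Of the 19 neural progenitor genes reported here, which include the 6 members, 3 (15.8%) had a T12h peak within 20 kb. At T48h 1 (5.26%) had a peak, and the shares over all protein-coding genes were 7.69% and 3.49%. The genes with a peak were the members already described, and none of the 13 other genes had one at either time. Pax6, Sox3, Hes1, Hes5 and Otx2, which encode transcription factors of neural progenitors, had none at either time.

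Of 15 POU genes, 3 had a peak at T12h and 2 at T48h, against 7.69% and 3.49% of all protein-coding genes. The POU list includes Pou3f2, which was picked with its peak known. Outside the members, 2 of 12 POU genes had a peak at T12h and 1 at T48h. With so few genes, nothing is read from the higher share. Pou2f1, which encodes the widely expressed OCT1, had a T12h peak 565 bp from its end on the side of its start (54 tags, fold 7.83). A weaker T12h peak 1574 bp from its other end (32 tags, fold 5.44) lay inside Cd247. Pou5f1, the pluripotency gene that encodes OCT4, had a peak 5970 bp away at T12h (75 tags, fold 9.44) and 5841 bp away at T48h (36 tags, fold 6.0). Both summits lay inside the neighbouring gene Tcf19, within 219 bp of the closer of its 2 ends, which may be its start. Pou3f4 and the 3 Pou4 genes had none.

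Of 20 SOX genes, 2 (10.0%) had a T12h peak and none a T48h peak, against 7.69% and 3.49% of all protein-coding genes. The SOX gene with a T12h peak beside Sox2 was Sox30, a gene of male germ cells. Its peak had 23 tags and a fold of 6.41 and lay 189 bp before a RefSeq start of the gene. None of the 11 proneural and neuron genes reported here, Neurog2, Dcx and Tubb3 among them, had a peak within 20 kb at either time. As few genes of any kind had a peak, no trait of these lists is read from the absence. These counts rest on peak calls alone, and a gene without a peak is one without a call at this depth.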

How the data were processed

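HA-hWDR5 ChIP-seq was analysed from 1 deposited peak table per rescue time. Peaks were called by MACS 1.4.2 on 1 ChIP library against 1 control, with a p cutoff of 1e-05, a band width of 300 bp, at most 1 tag per position and scaling to the smaller library, per the file headers. The submitters' processing notes list the build mm10 with HOMER 4.9.1, SAMtools 1.5, Bowtie2 and deepTools. The authors deposited, peak by peak, an unnormalised tag count, a score, a fold, which is a ratio to the local background, and a false discovery rate in percent. Fold, score and rate are the authors' and were not recomputed. Reads were not analysed here.

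The members and lists were chosen with earlier results of these data known, and 2 genes of the lists are not reported here. Named are all members, the reported members of the lists with a peak, and the 3 peaks nearest in fold to Pou3f2 on each side in each list; Iqch and the genes under other observations were chosen after their values were seen. Summits were placed against RefSeq genes of GRCm38.p6 (21887 protein-coding genes outside the mitochondrial genome). Starts and promoter sequences came from the RefSeq promoter table, which has no window for 1 of the 6 members. Peaks were paired by an overlap of at least 1 bp. Gene assignment and pairing were checked on simulated peaks. Tools were scipy 1.17.1, pandas 2.3.3 and numpy 2.4.6 under Python 3.11.15, with matplotlib 3.10.9 for figures. With 1 library per time no test was run, and Poisson 95% intervals cover counting error alone.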

Additional observations from a re-analysis of the deposited data

How the results depend on the processing

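Each time had 1 library, so no library could be left out and replicate error is unknown. No paired analysis was possible because there was no second library to pair. Where values moved, the cause was not tested unless the setting itself gives it, as a wider window or a shorter list does. Of the recomputed values, 98 kept their size and 31 moved. Counts and places kept their size when within 1.5 times. Ratios did so when within the fold ratio scaled by the Poisson limits of the T48h tags, a range that is not the error of the fold. The tally does not measure stability, since several counts rest on the same few peaks and many compare 0 with 0. A place counted as kept came from pairs that no longer included Pou3f2. The member counts stayed within 1.5 times under every setting but the false discovery rate limit. At 1 kb, at 5 kb and in the upper 50% of peaks by score, Nes and Pou3f2 made up the 2 members at T12h, and with a rate of 5% or less Nes and Sox2 did. That limit left 0 members and 0 member peaks at T48h, 0 of the neural list, 0 POU genes and 280 protein-coding genes. Requiring overlap of 50% of both peaks left 0 member peaks found at both times, since it drops the Pou3f2 pair. The Pou3f2 ratio of T48h to T12h was 0.0367 by tags per filtered tags, 0.0323 by tags per total tags and 0.0236 by score, against 0.364 by fold. Its place from the lowest fold ratio was 3 of 39 among pairs of T12h fold within 25% of its own. The POU family held 5 genes at T12h within 100 kb, and at T48h 1 at 1 kb, 1 at 5 kb and 1 when a peak counted for the nearest gene alone. The SOX family at T12h held 1 gene at 1 kb, 1 at 5 kb, 1 with equal list lengths and 0 in the upper 50% by score, and at T48h 1 within 100 kb. Protein-coding genes with a T12h peak numbered 930 at 1 kb, 1112 at 5 kb, 2695 at 50 kb, 4034 at 100 kb, 1054 in the upper 50% and 907 by nearest gene. At T48h they numbered 369, 465, 1314, 2137, 492 and 403 in the same order.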

Other observations

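Other T12h peaks that were strong but had a weak T48h partner, picked after their values were seen, were narrower at T48h too. These pairs were selected for a high T12h and a low T48h score, so their narrower T48h widths are no separate result. Of the 65 pairs with a T48h score of at most 80, Pou3f2 had the highest T12h score (2765.82), where the median was 173.7. The next was a T12h peak of 1195 bp at Rnf220, which encodes a ubiquitin ligase, with a T12h score of 1734.07 and a T12h fold of 36.69. One of its T48h partners was 249 bp wide with a fold of 6.96, but the T12h peak had 3 T48h partners, the best of which had a score of 397.53. Pou3f2 had 1 T48h partner. Next in T12h score came peaks at Bsg (fold 15.21 at T12h and 5.47 at T48h), Slc12a7 (15.79 and 7.45) and Prrc2b (14.1 and 7.28). Their widths went from 703 to 390 bp, from 884 to 294 bp and from 802 to 254 bp.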
